A study of Rattus norvegicus with 6 samples.

Results

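The genes described here are 10 genes that set the shape of mitochondria by fusing or dividing them: Mfn1, Mfn2, Opa1, Oma1, Dnm1l, Fis1, Mff, Mief1, Mief2 and Gdap1. They were found by their symbol in a table of 35291 genes from rat testis, and each symbol labelled 1 row. Mfn2 was chosen by its measured difference, since it was already known to be higher in the diabetic testes of this series, and the other 9 genes were added for their roles. The values of Mfn2 between the groups are therefore a description without a test, and the question put to the data was whether the same difference is seen in its 9 partners.

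Mitochondria fuse in 2 steps. The mitofusins, large GTPases of the outer membrane, tether and join the outer membranes of neighbouring mitochondria, and OPA1, a dynamin-related GTPase, joins the inner membranes. Division is carried out by DRP1, the product of Dnm1l, which is brought to the outer membrane by adaptors and wraps around the organelle. Mitofusin 2 also sits at contacts between mitochondria and the endoplasmic reticulum. In the testis, mitochondria change their shape and position as spermatocytes and spermatids develop, and in Leydig cells they hold the first enzyme of steroid synthesis.

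RNA-Seq was available for 6 testis samples from rats of the outbred Sprague-Dawley strain. Rats behind the 3 diabetic samples were fed a high-fat diet and then given a single intraperitoneal injection of streptozotocin, a toxin of pancreatic beta cells, at 35 mg/kg. Their testes were taken 8 weeks after it. The 3 non-diabetic samples came from rats injected with the citrate buffer alone. The diet of these rats and the ages of either group are not given in the sources used here. Nor is it given whether a library was made from 1 rat or from several. The p-values below therefore set a difference against the spread between these samples, which may not be the spread between single rats. Values are FPKM, fragments scaled for the length of the transcript and the depth of the library, so that levels of different genes can be set side by side. Reads per library are not given. The relative depth read from genes under 1 FPKM was 0.966 to 1.09 in the diabetic and 0.893 to 1.02 in the non-diabetic samples, against a mean of 1.

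The tissue carried markers of germ cells from spermatogonia to elongating spermatids. The protamine gene Prm1, a marker of elongating spermatids, was at 3227 FPKM or more in every sample. Summed markers of spermatogonia, spermatocytes, round spermatids, elongating spermatids, Sertoli cells, endothelial cells and peritubular myoid cells overlapped between the groups. A sum follows its most abundant gene, as with Clu, at a mean of 254 FPKM, for Sertoli cells. Of single markers in these lists, Kit was lower without overlap, and Wt1 and Acr were higher without overlap. Over all genes tested, 8.42% were lower and 4.56% higher in this way. The 4 Leydig cell markers (Insl3, Star, Cyp11a1 and Lhcgr) summed to between 18.0 and 45.7 FPKM in the diabetic samples and between 55.3 and 79.3 FPKM in the non-diabetic samples, and each of the 4 was lower without overlap, beside 8.42% of all genes tested. Insl3, Star and Cyp11a1, with log2 differences of -1.62, -1.24 and -1.16, passed the study's cutoffs (a log2 difference of 1 or more in either direction with an unadjusted p-value under 0.05), beside 0.846% of all genes that were lower. None of the 4 reached an adjusted p-value below 0.05, and the lowest was 0.0559, for Lhcgr. The 4 macrophage markers (Cd68, Csf1r, Cd163 and Adgre1) summed to between 7.18 and 7.51 FPKM in the diabetic samples and between 8.44 and 10.2 FPKM in the non-diabetic samples. Cd68 and Csf1r were lower without overlap, by -0.98 and -0.795, beside the same 8.42% of all genes. Cd163 and Adgre1 overlapped between the groups, with log2 differences of -0.23 and -0.13. Of the epididymal markers, Lcn8 was listed at 0 in all 6 samples, Lcn5 was at 0 in all samples but diabetic sample 1, and Adam7 stayed at or below 0.0824 FPKM. Adipoq, a gene of fat cells, was at 3.04 to 3.85 FPKM in the diabetic and at 3.85 to 5.25 FPKM in the non-diabetic samples, with a log2 difference of -0.32 (adjusted p = 0.729 from limma). In whole tissue, fewer cells of a type and less RNA per cell cannot be told apart, and the part of these marker differences in the values below was not tested.

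Mfn2, which encodes mitofusin 2, was higher in the diabetic testes. Its row (ENSRNOG00000046447) was at 33.6, 43.4 and 38.9 FPKM in the diabetic samples and, in the non-diabetic samples, at 10.2, 9.35 and 9.19 FPKM. Every diabetic sample lay above every non-diabetic one, and the lowest diabetic value was more than 3 times the highest non-diabetic value. The means differed 4.02-fold. On the scale of log2(FPKM + 0.1) the difference was 1.99 with a standard error of 0.10 and a 95% interval from limma of 1.74 to 2.24. The coefficient of variation was 12.7% among the diabetic and 5.92% among the non-diabetic samples.

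Mfn1, which encodes mitofusin 1, the other outer membrane fusion GTPase, did not share that difference. Its diabetic samples were at 63.1, 58.4 and 62.2 FPKM, and its non-diabetic samples at 64.7, 60.5 and 59.9 FPKM. The groups overlapped, and the means of 61.2 ± 2.49 and 61.7 ± 2.61 FPKM (SD, n = 3 each) lay closer to each other than the samples within either group. The log2 difference was -0.011 (95% interval -0.15 to 0.13, adjusted p = 0.984 from limma over all genes tested).

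With Mfn2 higher and Mfn1 overlapping between the groups, the balance of the mitofusins differed. For each unit of Mfn1, the Mfn2 row stood at 0.532, 0.743 and 0.626 in the diabetic samples and at 0.158, 0.155 and 0.153 in the non-diabetic samples. The 3 non-diabetic ratios lay within a narrow band and the diabetic ratios were spread more widely above them. As a share of the FPKM of both mitofusins, Mfn2 made up 38.6% ± 3.94 in the diabetic and 13.5% ± 0.194 in the non-diabetic samples (SD, n = 3 each). The 2 genes together came to 96.6, 102 and 101 FPKM in the diabetic samples and to 74.9, 69.9 and 69.1 FPKM in the non-diabetic samples. These ratios and sums contain Mfn2 and are given without a test. They use the Mfn2 row alone and leave out LOC100911485, a mitofusin-2-like row described below, with which the balance reads differently.

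**Figure D1:**
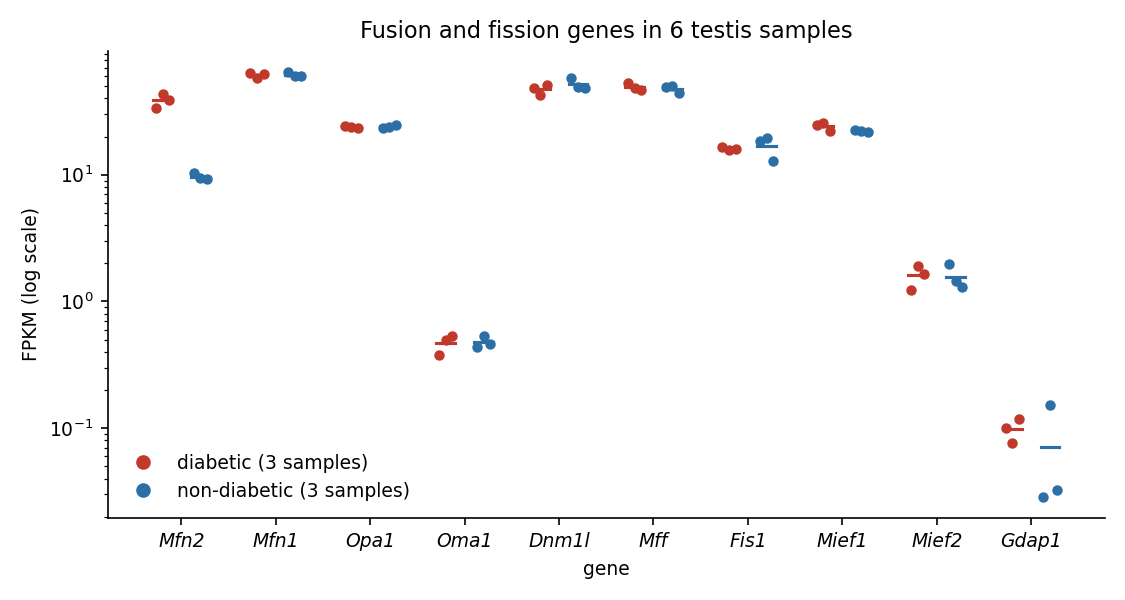
FPKM of the 10 genes on a log axis, with 1 point per sample (diabetic red, non-diabetic blue) and a bar at the mean of each group of 3. The groups are apart for Mfn2 (33.6 to 43.4 against 9.19 to 10.2 FPKM) and overlap for the other 9 genes.

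The deposited table also held a row that bears on the identity of these Mfn2 reads. LOC100911485 (ENSRNOG00000046424) carried the description mitofusin-2-like, and it stood at 52.5, 52.2 and 45.5 FPKM in the diabetic samples and, in the non-diabetic samples, at 50.0, 46.3 and 44.8 FPKM. It stood above the Mfn2 row in all 6 samples, and its groups overlapped, with a log2 difference of 0.088 (95% interval -0.098 to 0.27, adjusted p = 0.879 from limma). RefSeq's gene table for the rat assembly GRCr8 lists 1 gene Mfn2 and lists neither LOC100911485 nor LOC102556337, which is described further down. The build used for the deposited table is not given in the sources used here. If both rows stand for copies of 1 gene, reads that match both could have been given to either, so the level of Mfn2 in its own row is uncertain.

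The ratio of the Mfn2 row to the LOC100911485 row was 0.205, 0.202 and 0.205 in the non-diabetic samples, which agreed to within a standard deviation of 0.00179. In the diabetic samples it was 0.640, 0.830 and 0.856. The Mfn2 row thus held between 16.8% and 17.0% of the sum of both rows in the non-diabetic samples and between 39.0% and 46.1% in the diabetic samples. Added together, the rows came to 86.0, 95.6 and 84.4 FPKM in the diabetic samples and to 60.2, 55.7 and 54.0 FPKM in the non-diabetic samples. The diabetic samples were again higher without overlap, but the means differed 1.57-fold in place of 4.02-fold, and the log2 difference was 0.65 with a standard error of 0.072. Set against Mfn1, the sum stood at 1.45 ± 0.160 in the diabetic and 0.918 ± 0.0149 in the non-diabetic samples (SD, n = 3 each). The lengths of the transcripts behind the rows are not given, so the sum adds densities per length and not fragments. The sum was chosen after the values were seen, and it contains Mfn2, so it too has no test.

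A further difference between the rows lay in how their values were written. The values of Mfn2 had at most 6 decimals in every sample, and those of LOC100911485 had up to 8, as 5641 of the 35291 rows had more than 6. Among the 10 genes, Mfn1, Opa1, Dnm1l, Fis1, Mff and Mief1 had more than 6 decimals, and Mfn2, Oma1, Mief2 and Gdap1 did not. How many transcripts were added up in a row is not given.

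Mff, which encodes a receptor of DRP1 on the outer membrane, had a row of this kind as well. LOC102556337 (ENSRNOG00000048016), described as mitochondrial fission factor-like, was at 43.3 to 50.0 FPKM in the diabetic and at 43.2 to 49.2 FPKM in the non-diabetic samples. Mff itself was at 52.8, 48.6 and 46.3 FPKM in the diabetic samples and, in the non-diabetic samples, at 49.3, 50.1 and 44.1 FPKM. Its row held 50.4% to 51.7% of the sum of both rows in the diabetic and 50.4% to 51.3% in the non-diabetic samples, so that the split was close to even and overlapped between the groups (exact permutation test, two-sided, p = 0.6). The log2 difference was 0.042 for Mff, 0.020 for LOC102556337 and 0.031 for their sum (adjusted p = 0.947, 0.977 and 0.963 from limma). The other 8 genes had no row whose description was their own followed by "like".

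Across the table, 225 pairs of a gene and a row described as its like were tested in both rows. Pairs were formed by description alone, so they are not all copies of 1 gene. They include genes with symbols of their own, such as Arnt with Arntl and Dnm1 with Dnm1l, and Rps20 occurs in several. The median absolute gap between the log2 differences of a pair was 0.0995, and 5 pairs were apart by 1 or more. Mfn2 and LOC100911485, 1.90 apart, were in place 4 of that order, which follows from the difference by which Mfn2 was chosen, and Mff and LOC102556337, 0.022 apart, in place 190.

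**Figure D2:**
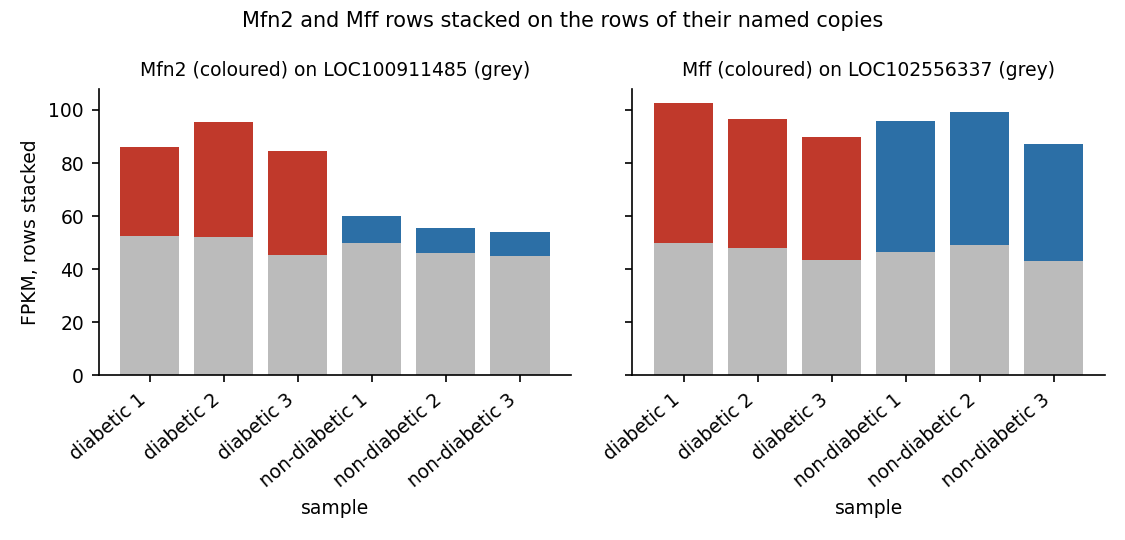
Stacked FPKM in each sample of Mfn2 on LOC100911485 (left) and of Mff on LOC102556337 (right). The LOC row is in grey, and the named gene in red for diabetic and blue for non-diabetic samples. Whether the LOC rows are copies of these genes was not tested. The grey part overlaps between the groups in both panels, and the coloured part differs between the groups for Mfn2 only, with sums of 84.4 to 95.6 against 54.0 to 60.2 FPKM.

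For the genes of inner membrane fusion, no difference was found. Opa1 was at 24.3, 23.7 and 23.5 FPKM in the diabetic samples and, in the non-diabetic samples, at 23.3, 23.9 and 24.8 FPKM. The groups overlapped, and the lowest and the highest value were both non-diabetic. Its log2 difference was -0.0094 (95% interval -0.15 to 0.13, adjusted p = 0.989 from limma). Oma1, which encodes the inner membrane protease that cuts OPA1 under stress, was low, at 0.376, 0.492 and 0.533 FPKM in the diabetic samples and, in the non-diabetic samples, at 0.440, 0.534 and 0.462 FPKM. Its mean lay below the 0.5 FPKM required for the test across genes, and the groups overlapped (exact permutation test, two-sided, p = 0.9). The ratio of Opa1 to Oma1 was 52.4 ± 10.9 in the diabetic and 50.5 ± 4.94 in the non-diabetic samples (SD, n = 3 each, exact permutation test, p = 0.9).

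Dnm1l, the gene of the fission GTPase DRP1, had the lowest log2 difference of the 7 partners tested. The diabetic samples held 48.7, 42.4 and 51.2 FPKM, and the non-diabetic samples 58.2, 49.3 and 48.7 FPKM. The difference of -0.13 (95% interval -0.37 to 0.10) did not pass the test (adjusted p = 0.843 from limma), and the groups overlapped. The ratio of Mfn1 to Dnm1l, a measure of fusion against fission transcripts that leaves Mfn2 out, was 1.30 ± 0.0812 in the diabetic and 1.19 ± 0.0674 in the non-diabetic samples (SD, n = 3 each), and its groups overlapped (exact permutation test, two-sided, p = 0.3). With 3 samples in each group, this test cannot give a p-value below 0.1.

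None of the adaptors that recruit DRP1 passed the test. Fis1, a tail-anchored protein of the outer membrane, was at 16.6, 15.8 and 16.0 FPKM in the diabetic samples and, in the non-diabetic samples, at 18.4, 19.6 and 12.8 FPKM. The non-diabetic samples spread on both sides of the diabetic ones, and the log2 difference was -0.045 (95% interval -0.41 to 0.32, adjusted p = 0.975 from limma). Without non-diabetic sample 3 the groups did not overlap, and the log2 difference of Fis1 was -0.23 (adjusted p = 0.617 from limma). Leaving out a sample makes separate groups more likely for any gene. The ratio of Mff to Fis1 was 3.05 ± 0.141 in the diabetic and 2.89 ± 0.487 in the non-diabetic samples (SD, n = 3 each, exact permutation test, two-sided, p = 0.7).

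Mief1, which encodes MiD51, was at 24.8, 25.5 and 22.2 FPKM in the diabetic samples and, in the non-diabetic samples, at 22.6, 22.2 and 21.8 FPKM. Its diabetic samples 1 and 2 lay above the non-diabetic range and diabetic sample 3 within it. The log2 difference of 0.12 (95% interval -0.053 to 0.29) was the highest among the partners and did not pass the test (adjusted p = 0.801 from limma). Without diabetic sample 3 the groups of Mief1 did not overlap, and the log2 difference was 0.18 (adjusted p = 0.597 from limma). As for Fis1, separate groups are more likely once a sample is left out.

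Mief2, which encodes the related adaptor MiD49, was far lower than Mief1. Its diabetic values were 1.24, 1.91 and 1.65 FPKM and, in the non-diabetic samples, 1.97, 1.44 and 1.30 FPKM. The highest single value was a non-diabetic and the lowest a diabetic one, and the log2 difference was 0.026 with a wide 95% interval of -0.53 to 0.58 (adjusted p = 0.993 from limma). The ratio of Mief1 to Mief2 was 15.6 ± 3.85 in the diabetic and 14.5 ± 2.72 in the non-diabetic samples (SD, n = 3 each, exact permutation test, two-sided, p = 0.8). Gdap1, an outer membrane protein known chiefly from peripheral nerve, was near the floor of the table. Its diabetic values were 0.0999, 0.0757 and 0.118 FPKM and, in the non-diabetic samples, 0.0288, 0.151 and 0.0327 FPKM, below the level required for the test, and the groups overlapped (exact permutation test, two-sided, p = 0.6).

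Counted over the set, the difference seen in Mfn2 was not found in a partner. Of the 9 partners, 7 reached a mean of 0.5 FPKM and were tested, 3 with a log2 difference above 0 and 4 with one below. By limma, 0 of the 7 had an adjusted p-value below 0.05, a threshold that 7 of all 20338 genes tested passed (0.0344%), and 0 of the 7 had an unadjusted p-value below 0.05, against 1517 genes in all (7.46%). The study's cutoffs were also passed by 0 of the 7, against 253 genes in all (1.24%). The groups overlapped for all 9 partners, and over all genes tested they were separate for 2640 (13.0%). Since the contrast served to choose Mfn2, nothing is read from these counts for the set as a whole.

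The sizes of the differences are given with their intervals. The median log2 difference of the 7 partners was -0.0094, beside -0.021 over all genes tested. Their 95% intervals from limma reached up to 0.58, for Mief2, and up to 0.32, for Fis1, among the rest. The highest of these bounds corresponds to a 1.49-fold difference. They stand beside log2 differences of 1.99 for the row of Mfn2, by which it was chosen, and 0.65 for its sum with LOC100911485. An interval that includes 0 does not show that a gene was the same in both groups. The residual standard deviation on the log2 scale was 0.037 to 0.30 among the partners with a median of 0.097, 0.14 for Mfn2 and 0.18 as the median of all genes tested.

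**Figure D3:**
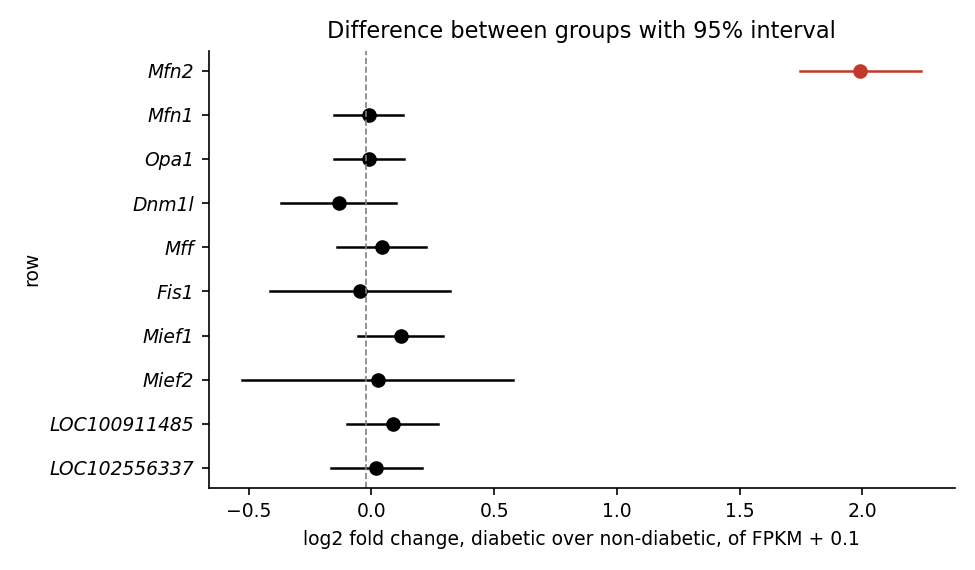
Log2 difference (diabetic over non-diabetic, of FPKM + 0.1) with its 95% interval from limma for Mfn2 (red), the 7 partners tested, LOC100911485 and LOC102556337. The dashed line is the median of all genes tested, -0.021. The intervals of the 7 partners and of both LOC rows include 0. Mfn2 was chosen by its difference, so its interval is a description and not a test.

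The levels of the 10 genes were put in order within each group by their means. In the non-diabetic samples Mfn1 was the highest of the 10 genes, followed by Dnm1l and Mff, whose ranges overlapped, and then by Opa1, Mief1, Fis1 and Mfn2, each with a range apart from the next. Mief2, Oma1 and Gdap1 followed, again with separate ranges. In the diabetic samples the row of Mfn2 ranked 4 from the top, and in the non-diabetic samples 7. In the diabetic samples its range overlapped that of Dnm1l just above it and lay apart from that of Mief1 just below it, and the ranges of Mff and Dnm1l and of Mief1 and Opa1 overlapped. These last pairs also stood in the opposite order, with Mff above Dnm1l and Mief1 above Opa1 in the diabetic samples. The rank of Mfn2 is that of its row alone. With LOC100911485 added, its mean of 88.7 FPKM lay above that of Mfn1, 61.2 FPKM, in the diabetic samples, and its mean of 56.6 FPKM in the non-diabetic samples lay between those of Mfn1, 61.7 FPKM, and Dnm1l, 52.1 FPKM, with ranges that overlapped both.

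**Figure D4:**
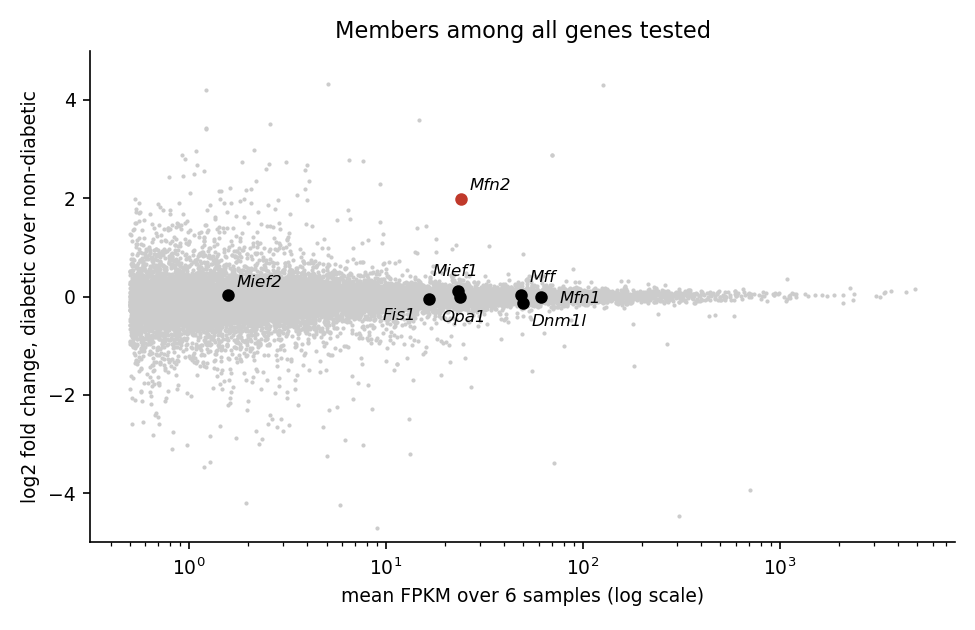
Mean FPKM over 6 samples (log axis) against the log2 difference of each gene tested (grey), with the 8 members that were tested marked and 1 other gene beyond the vertical range not drawn. Mfn2 stands at 24.1 FPKM and 1.99, and the 7 partners lie between -0.13 and 0.12.

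The wider machinery around these 10 genes was followed with 7 lists, of which 67 genes were in the table and 64 were tested. In limma, 0 of the 64 had an adjusted p-value below 0.05, where 0.00983% of all genes tested were higher and 0.0246% lower. The study's cutoffs were passed by 0 of the 64, beside 0.398% of all genes higher and 0.846% lower. At an unadjusted p-value below 0.05, 1 gene was higher and 4 were lower, beside 2.47% and 4.99% of all genes tested in these directions. The groups were separate for 3 genes that were higher and 7 that were lower, beside 4.56% and 8.42% of all genes. The median log2 difference over the 64 genes was -0.041.

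The regulators of fusion had a median log2 difference of -0.085 over 12 genes, of which 3 lay above 0 and 9 below. The highest expressed were Mtch2, an outer membrane insertase, with means of 278 and 286 FPKM in the diabetic and non-diabetic samples, and Yme1l1, another protease of OPA1, with means of 29.9 and 31.4 FPKM. Stoml2, which encodes a scaffold of the inner membrane that takes part in stress-induced fusion, was at 9.87, 8.12 and 9.23 FPKM in the diabetic and, in the non-diabetic samples, at 10.5, 11.9 and 10.6 FPKM. These groups did not overlap, with a log2 difference of -0.28 (adjusted p = 0.613 from limma).

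The regulators of fission had a median log2 difference of 0.0042 over 7 genes tested. Sh3glb1, which encodes the membrane-bending protein endophilin B1, had means of 302 and 300.3 FPKM in the diabetic and non-diabetic samples. Mtfr1, a promoter of fission, had means of 197 and 204 FPKM, with lower values in the diabetic samples that did not overlap the others and a log2 difference of -0.052 (adjusted p = 0.882 from limma). Spire1, which encodes an actin nucleator with an isoform on mitochondria, was at 10.6, 10.0 and 10.1 FPKM in the diabetic and, in the non-diabetic samples, at 7.39, 8.25 and 8.73 FPKM. Its log2 difference of 0.33, with groups that did not overlap, was the highest of all 64 genes and did not pass the adjusted test (adjusted p = 0.476 from limma). Senp5 was at 2.48, 2.72 and 2.14 FPKM in the diabetic and, in the non-diabetic samples, at 2.75, 3.07 and 2.99 FPKM. Its log2 difference of -0.26, in groups that did not overlap, was the lowest of this list (adjusted p = 0.763 from limma). Mtfp1, Inf2 and Gdap1l1 were below the level required for the test.

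Genes that ubiquitinate mitofusins or remove them had log2 differences between -0.089 and 0.084 over the 5 that were tested. Pink1, the kinase that marks damaged mitochondria, had means of 37.2 and 36.2 FPKM in the diabetic and non-diabetic samples, and Vcp, the segregase that extracts ubiquitinated mitofusins, of 69.4 and 73.9 FPKM.

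At the contacts between mitochondria and the endoplasmic reticulum, 3 of 11 genes had a log2 difference above 0 and 8 below, with a median of -0.066. Hspa9, a chaperone of the matrix, was at 111 and 112 FPKM, and Pacs2, a sorting protein of these contacts, at 42.7 and 42.1 FPKM as means of the diabetic and non-diabetic samples. Vdac1, the outer membrane channel, had a log2 difference of -0.32 and Bcap31, a protein of the endoplasmic reticulum, one of -0.31, in groups that did not overlap (adjusted p = 0.627 and 0.661 from limma). Itpr3 was also lower without overlap, by -0.36, and Pdzd8 was higher without overlap, by 0.12 (adjusted p = 0.722 and 0.736 from limma). The 5 transport genes lay between -0.11 and -0.011, with Kif5b at 22.6 and 24.0 FPKM and Trak2 at 17.3 and 18.2 FPKM. The 8 genes tested of the cristae organising system had a median of -0.019, with Immt at 148 and 150.3 FPKM and Chchd6 at 132 and 135 FPKM.

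None of the 16 genes of mitochondrial content and biogenesis passed the adjusted test. Of the 16, 8 had a log2 difference above 0 and 8 below, with a median of -0.0069. As means of the diabetic and non-diabetic samples, Vdac3 was at 464 and 478 FPKM and Vdac2 at 287 and 285 FPKM. Hspd1, which encodes a chaperone of the matrix, was at 15.3, 15.0 and 18.5 FPKM in the diabetic and, in the non-diabetic samples, at 19.4, 19.3 and 20.1 FPKM. Its groups did not overlap, with a log2 difference of -0.28 (unadjusted p = 0.0211 and adjusted p = 0.588 from limma). Cs was higher without overlap, with means of 69.9 and 63.1 FPKM and a log2 difference of 0.15 (adjusted p = 0.671 from limma). Ppargc1a, which encodes a coactivator known to raise Mfn2 transcription in muscle, was low at 0.448 and 0.595 FPKM, with overlapping groups and a log2 difference of -0.40 (adjusted p = 0.919 from limma). Ppargc1b, of the same list, was at 15.5 and 14.0 FPKM, with overlapping groups and a log2 difference of 0.14 (adjusted p = 0.880 from limma). Summed over the list, the FPKM were 1022 to 1066 in the diabetic and 1028.5 to 1071 in the non-diabetic samples.

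**Figure D5:**
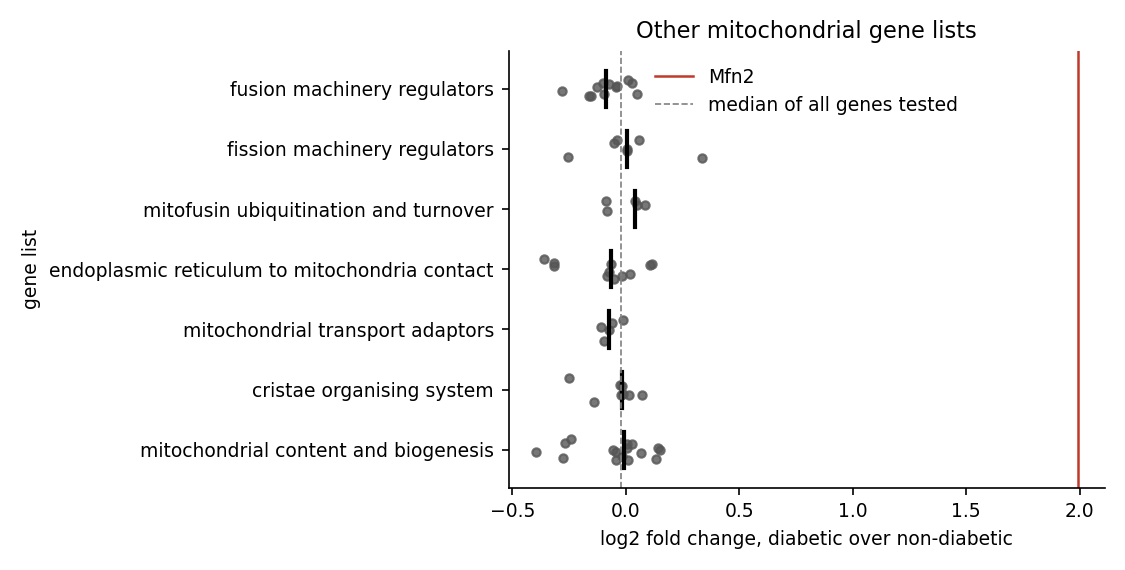
Log2 differences of the tested genes of the 7 lists, 1 point per gene with a black bar at the median of the list, beside the value of Mfn2 (red line) and the median of all genes tested (dashed line). The points lie between -0.40 and 0.33, and Mfn2 at 1.99.

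The neighbours of Mfn2 on its chromosome, in the order of RefSeq's assembly GRCr8, are given for comparison. On one side, the 3 nearest genes with a tested row were Miip, Zfp933 and Tnfrsf1b, with log2 differences of 0.042, -0.42 and -0.82, of which Tnfrsf1b lies 33 genes away. Miip also had a row described as its like, LOC100911456, with a log2 difference of 0.061. The means over 6 samples were 19.3 FPKM for Miip and 15.4 FPKM for that row. On the other side they were Plod1, RGD1305350 and Clcn6, with log2 differences of -0.43, 0.12 and -0.017. The groups overlapped for 4 of the 6 and were separate for Tnfrsf1b and Plod1, in both with lower values in the diabetic samples. Over all genes tested, 8.42% were lower without overlap, and nothing is read from a count among 6 genes. The adjusted p-values from limma for the 6 were between 0.629 and 0.991.

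The profile of Mfn2 over the 6 samples was compared with those of 14987 genes that have a symbol and a mean of at least 1 FPKM, by the root mean square difference of the centred log2 values. The 5 closest were Aldh1a7 at 0.258, Lck at 0.436, Palm at 0.447, LOC501467 at 0.482 and the row 5_8S_rRNA at 0.483. All 5 were higher in the diabetic samples without overlap, which the measure favours. Aldh1a7, an aldehyde dehydrogenase, was at 3.58, 3.55 and 3.21 FPKM in the diabetic and, in the non-diabetic samples, at 0.575, 0.885 and 0.594 FPKM. Lck, a tyrosine kinase best known from T cells, was at 5.21, 7.18 and 8.00 FPKM against 3.51, 2.73 and 2.58 FPKM. Of the partners, Mief1 was the closest to Mfn2 by this measure, in place 1769, and Dnm1l the farthest, in place 11183. LOC100911485 stood in place 2611. The partners tested fell in the same order by this measure as by their log2 difference. Their places follow the group difference, by which Mfn2 was chosen, and no further likeness is read from them.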

How the data were processed

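Testis RNA of 3 diabetic and 3 non-diabetic samples was sequenced in paired-end mode on an Illumina instrument. The authors compared reads with rRNA sequences (BWA), aligned them (STAR), assembled transcripts (StringTie) and deposited FPKM per gene or assembled locus; versions, genome build and the use of strand are not given in the sources used here. Groups and replicate numbers came from the sample titles. The table holds no counts, so the study's DESeq2 screen was not repeated.

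FPKM were transformed to log2(FPKM + 0.1), and the 20338 rows with a mean of at least 0.5 FPKM were compared by the two-sided test of limma 3.58.1 (R 4.3.3, eBayes with trend), and p-values were adjusted over all of them by the Benjamini-Hochberg method. Single values and ratios were compared by exact permutation tests (scipy 1.17.1). The number of reads is unknown, so precision rests on the spread between samples. Alternatives were other pseudocounts, filters, scalings, eBayes settings and gene sets, summed symbols, a replicate block and leaving out each sample.

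The members and the gene lists were chosen with earlier results of these data known. The genes named are the 10 members, the 2 highest genes of each list and any past the adjusted threshold or the study's cutoffs, the 3 nearest tested neighbours on each side of Mfn2 and the 5 closest profiles. Stoml2, Spire1, Senp5, Vdac1, Bcap31, Itpr3, Pdzd8, Hspd1, Cs, Ppargc1a and Ppargc1b were named after their values were seen. So were the rows described as the like of Mfn2, Mff and Miip and the examples of pairs.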

Additional observations from a re-analysis of the deposited data

How the results depend on the processing

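The 7 partners tested kept an adjusted p-value of at least 0.597 from limma over all 18 alternatives, with log2 differences between -0.23 and 0.19, and 0 of them passed the adjusted threshold or the study's cutoffs in any. The log2 difference of Mfn2 lay between 1.90 and 2.09 when each sample was left out and between 1.90 and 2.02 under the other alternatives. It was 0.65 with LOC100911485 added to it, an alternative chosen after seeing the data, because the added row is higher and overlaps between the groups. Partners at an unadjusted p-value under 0.05, and those with separate groups, ran from 0 to 1 when each sample was left out. The 1 was Mief1 without diabetic sample 3 and Fis1 without non-diabetic sample 3. In those fits, 1586 of 20369 and 1502 of 20273 genes tested had an unadjusted p-value under 0.05 (limma). The share of all genes with separate groups was not counted there, and groups separate more readily when a sample is left out. Nothing is read from these counts.

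Median-ratio scaling turned the sign of small differences, to 0.013 for Mfn1, 0.015 for Opa1, 0.0066 for Clcn6, 0.0067 for Hspa9 and 0.0045 for Immt. The scaling moved the median of all genes from -0.021 to 0.0026. Signs also turned when samples were left out, where the log2 difference ran from -0.033 to 0.023 for Mfn1, -0.031 to 0.015 for Opa1, -0.23 to 0.072 for Fis1, -0.015 to 0.085 for Mff, -0.11 to 0.19 for Mief2 and -0.029 to 0.078 for LOC102556337. It ran from -0.041 to 0.11 for Miip, -0.078 to 0.018 for Clcn6, -0.042 to 0.057 for Sh3glb1, -0.020 to 0.095 for Pink1, -0.050 to 0.023 for Hspa9 and -0.058 to 0.079 for Pacs2. It ran from -0.18 to 0.040 for Trak2, -0.045 to 0.0018 for Immt, -0.092 to 0.016 for Chchd6 and -0.015 to 0.042 for Vdac2. With a pseudocount of 1 the log2 difference of Aldh1a7 moved from 2.20 to 1.40 and that of Palm from 2.68 to 1.28, which was 3.10 with a pseudocount of 0.01.

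Samples with the same number had deviations from their group means that correlated at 0.106, 0.015 and 0.098. Between samples with other numbers the correlations ran from -0.126 to 0.032, so these values do not settle whether the numbers pair the samples. With the replicate number as a block, the log2 difference of Mfn2 was 1.99, 0 partners passed, and 4 genes of the whole table in place of 7 passed the adjusted threshold of 0.05. That count was 3 without a filter, 12 without the eBayes trend, 15 with equal symbols summed, 35 among protein-coding genes alone, and 0 to 14 when each sample was left out, the 0 (limma) being without non-diabetic sample 3, where 1502 genes had an unadjusted p-value under 0.05. The 253 genes of the whole table past the study's cutoffs became 91 with a pseudocount of 1, 621 without a filter and 90 among protein-coding genes alone. Single transcripts, and reads shared by copies of a gene, cannot be followed in values per row.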
